A study of Homo sapiens with 2 samples.

Results

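Small nucleolar RNA (snoRNA) host genes and microRNA host genes were followed in REH, a leukaemia line of human B-cell precursors (B-ALL), with and without an induced PAX5 cassette. The genes were chosen by symbol: every SNHG gene with a number, every gene named MIR, digits and HG, and GAS5, ZFAS1, DANCR, EPB41L4A-AS1, MALAT1, NEAT1 and TUG1. This gave 53 of 25702 gene features. Of these 53 genes, 26 are snoRNA hosts, 24 are microRNA hosts and 3 are the long nuclear-enriched or partly nuclear transcripts MALAT1, NEAT1 and TUG1. At least 10 counts over both libraries were reached by 36 of the 53, namely 24 of the snoRNA hosts, 9 of the microRNA hosts and all 3 of the others.

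A snoRNA host gene is transcribed and spliced like a messenger RNA, and the snoRNAs are cut out of its introns. C/D box snoRNAs guide 2′-O-methylation of ribosomal RNA and H/ACA box snoRNAs guide pseudouridylation, while the leftover spliced exons of many hosts are short, carry no long reading frame and are broken down by nonsense-mediated decay during translation. Many hosts begin with a 5′ terminal oligopyrimidine tract, the start sequence they share with ribosomal protein genes. MicroRNA host transcripts are cleaved in the nucleus by DROSHA, so the spliced host RNA is not a measure of the mature microRNA.

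The PAX5 cells carried a tetracycline-regulated construct that made PAX5 and, through an IRES (an internal start point for ribosomes), GFP from 1 transcript, and the control cells the IRES and GFP without PAX5. Both kinds of cells, labelled REH-R, were treated with doxycycline at 1 µg/mL for 3 days and sorted for GFP before total RNA was extracted, so that drug, sort and GFP were common to both groups. PAX5 is the transcription factor that holds cells in the B lineage. Whether the lines are clones is not stated in the labels. Each group had 1 library, so every difference below lacks a replicate check and no p-value is given.

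The deposited counts per gene summed to 11944765 in PAX5 cells and 10997864 in control cells. Ratios are the PAX5 library over the control library after scaling, with an exact 95% interval in brackets. That interval holds the error of counting alone, so it speaks of the 2 libraries and not of the conditions. PAX5 itself had 8319 counts in PAX5 cells and 2660 in control cells, a log2 ratio of 1.54 (1.48 to 1.60), so the control cells also contained PAX5 transcript. All 9 B-cell precursor markers looked for had at least 10 counts, with VPREB1 the weakest at 17 counts in PAX5 cells and 7 in control cells. Markers of other blood cells were at or near 0: 6 T-cell genes summed to 0 counts in PAX5 cells and 1 in control cells, 5 myeloid genes to 4 in each, and 3 erythroid genes to 2 in PAX5 cells and 0 in control cells. In bulk RNA, fewer cells of a kind and less RNA per cell cannot be told apart.

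The start sites of 8 snoRNA hosts are shown first, because a pyrimidine tract is the sequence feature named above for such hosts. Of these, 7 have a run of at least 7 pyrimidines near the RefSeq start, and SNHG5 has a run of 6. The 8 do not stand for all hosts. Of the 21 hosts with a promoter sequence and at least 10 counts, 11 have no such run, GAS5 and DANCR among them. Each run is given 5′ to 3′ on the strand of the gene, from 30 bases before the RefSeq start to 20 bases from it onward (GRCh38.p14). Capitals mark the longest run of C and T that touches the region from 5 bases before to 5 bases after the start, where that run has at least 7 letters, and SNHG5, whose run is shorter, is shown without capitals.
SNHG29 (chr17:16438957-16439006, plus strand): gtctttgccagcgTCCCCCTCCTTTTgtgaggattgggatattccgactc
SNHG32 (chr6:31834886-31834935, plus strand): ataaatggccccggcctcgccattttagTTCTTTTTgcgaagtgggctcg
ZFAS1 (chr20:49278612-49278661, plus strand): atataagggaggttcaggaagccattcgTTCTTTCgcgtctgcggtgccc
SNHG16 (chr17:76557734-76557783, plus strand): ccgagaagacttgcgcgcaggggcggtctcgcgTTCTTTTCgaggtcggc
SNHG19 (chr16:2155339-2155388, minus strand): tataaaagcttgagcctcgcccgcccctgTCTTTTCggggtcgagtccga
SNHG1 (chr11:62855866-62855915, minus strand): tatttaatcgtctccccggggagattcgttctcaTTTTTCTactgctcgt
SNHG7 (chr9:136728165-136728214, minus strand): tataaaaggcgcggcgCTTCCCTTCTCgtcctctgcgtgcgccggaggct
SNHG5 (chr6:85678714-85678763, minus strand): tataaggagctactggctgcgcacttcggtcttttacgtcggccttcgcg

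RefSeq promoter sequences matched 44 of the 53 genes, including 21 of the 24 snoRNA hosts with at least 10 counts. A run of at least 7 pyrimidines at or near the start was found in 10 of these 21 hosts (47.6%), in 24 of 34 cytosolic ribosomal protein genes (70.6%) and in 15.6% of 10348 promoters of features with at least 10 counts. None of 7 microRNA hosts had one, and MALAT1 did. Hosts with and without the run had close values: the median log2 ratio was -0.27 in the 10 hosts with a run and -0.23 in the 11 without. The run is a rule of letters near the RefSeq start, and some runs end before it. It therefore does not separate hosts with a terminal tract from hosts that lack one. The letters GCGTGAC, a core of the PAX5 binding motif, were searched on both strands of the same promoters, over the 250 bases before and 50 bases after each start. They occurred in 2 of the 30 promoters of these genes, those of SNHG21 and MALAT1, and in 3.97% of the 10348. A match is a description of letters and not a binding site.

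The most abundant snoRNA hosts were at slightly lower levels in PAX5 cells. SNHG29, the host of SNORD49A, SNORD49B and SNORD65, had 9970 counts in PAX5 cells and 10851 in control cells, which is 343 CPM per kilobase (counts per 1000000 per 1000 bases of gene) in PAX5 cells and 402 in control cells. Its log2 ratio was -0.23 (-0.27 to -0.19). SNHG5, the host of the SNORD50 pair, had 1745 counts in PAX5 cells and 1839 in control cells, with a log2 ratio of -0.18 (-0.28 to -0.09). Both intervals lay below 0, as did 16.8% of all features with at least 10 counts, and both differences were small. SNHG32 (SNORD48 and SNORD52) had 2068 counts in PAX5 cells and 2301 in control cells, with a log2 ratio of -0.26 (-0.35 to -0.17). ZFAS1, a noncoding RNA that carries the SNORD12 group, had 1610 counts in PAX5 cells and 1858 in control cells, with a log2 ratio of -0.31 (-0.41 to -0.22). SNHG6, which holds SNORD87, had 895 counts in PAX5 cells and 1094 in control cells, with a log2 ratio of -0.40 (-0.52 to -0.27). These 5 had the highest levels per length of the whole set in PAX5 cells, and each was lower there than in control cells.

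**Figure D1:**
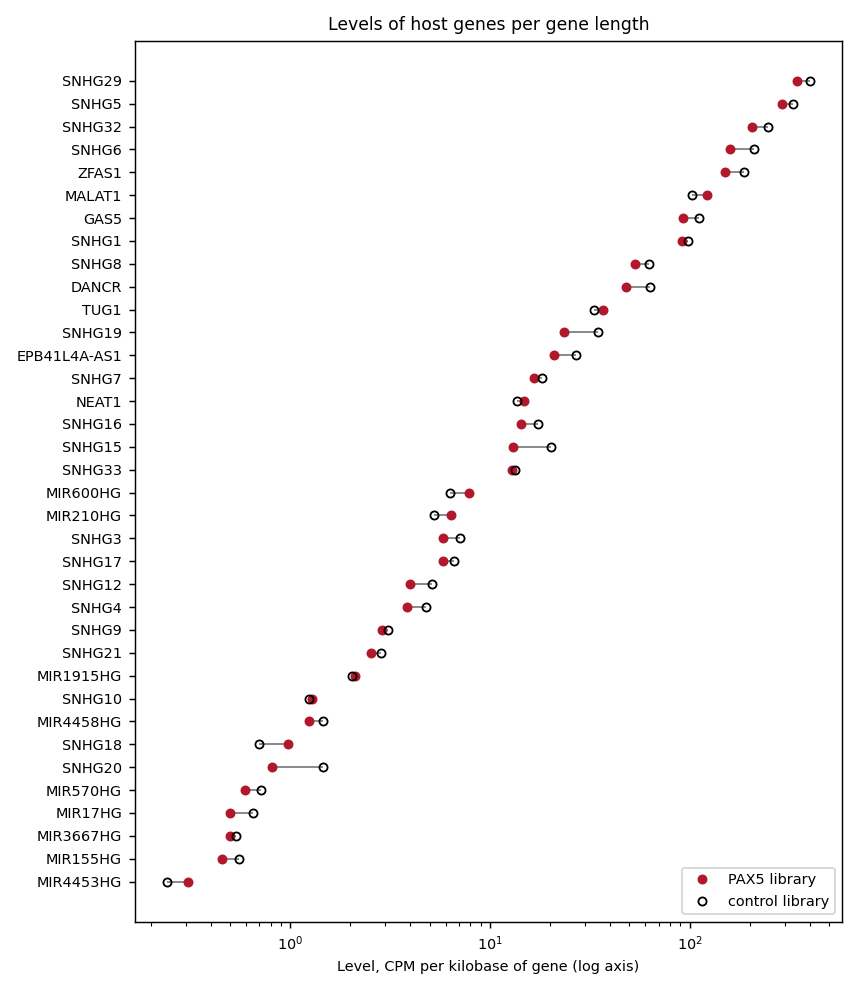
Level of each of the 36 host genes with at least 10 counts, in CPM per kilobase of gene on a log axis, with filled points for the PAX5 library and open points for the control library (1 library each, no error bars). Levels in the PAX5 library ran between 0.308 for MIR4453HG and 343 for SNHG29, and the 2 points of most genes lie close together.

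The next hosts by level per length were GAS5 and SNHG1, which hold the most snoRNA genes. GAS5, a growth arrest transcript with 11 annotated snoRNA genes in its span, had 693 counts in PAX5 cells and 776 in control cells, with a log2 ratio of -0.27 (-0.42 to -0.12). SNHG1, with 9, had 1225 counts in PAX5 cells and 1212 in control cells, with a log2 ratio of -0.091 (-0.21 to 0.025). The interval lay below 0 for GAS5 and included 0 for SNHG1. In level per length the pair was close, at 92.2 CPM per kilobase for each in PAX5 cells, against 111 for GAS5 and 98.1 for SNHG1 in control cells.

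Hosts of H/ACA snoRNAs included the lowest ratio among genes with at least 100 counts. SNHG15, the host of SNORA9, had 125 counts in PAX5 cells and 179 in control cells, which is 0.649-fold (0.512 to 0.820) and a log2 ratio of -0.62 (-0.97 to -0.29). DANCR, a differentiation-antagonizing noncoding RNA that hosts SNORA26, had 490 counts in PAX5 cells and 600 in control cells, with a log2 ratio of -0.40 (-0.57 to -0.22). EPB41L4A-AS1, the host of SNORA13, had 298 counts in PAX5 cells and 357 in control cells, with a log2 ratio of -0.37 (-0.59 to -0.14). All 3 intervals lay below 0, where 16.8% of all features with at least 10 counts did. Of the 10 hosts of H/ACA snoRNAs only, 4 had intervals below 0. SNHG8 (SNORA24) had 391 counts in PAX5 cells and 427 in control cells, with a log2 ratio of -0.23 (-0.43 to -0.03). SNHG7 (SNORA17A and SNORA17B) had 530 counts in PAX5 cells and 546 in control cells, with a log2 ratio of -0.15 (-0.32 to 0.026). SNHG3, the host of the SNORA73 pair, had 163 counts in PAX5 cells and 184 in control cells, with a log2 ratio of -0.28 (-0.59 to 0.03). The intervals of SNHG7 and SNHG3 reached just past 0. SNHG33, which holds SNORA63D and SNORA63E, had 258 counts in PAX5 cells and 246 in control cells, with a log2 ratio of -0.037 (-0.29 to 0.22), the value nearest 0 of the snoRNA hosts.

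Of the remaining hosts, SNHG16, which holds the SNORD1 group, had 472 counts in PAX5 cells and 530 in control cells, with a log2 ratio of -0.27 (-0.46 to -0.09). SNHG19 (SNORD60) had 94 counts in PAX5 cells and 130 in control cells, with a log2 ratio of -0.57 (-0.97 to -0.18). SNHG20, whose span holds SCARNA16, had 21 counts in PAX5 cells and 35 in control cells, with a log2 ratio of -0.84 (-1.70 to -0.02). That is the lowest ratio of the set, on few counts. A further 7 hosts with few counts had intervals that included 0. In PAX5 cells they had 90 counts for SNHG17, 71 for SNHG4, 35 for SNHG12, 30 for SNHG10, 24 for SNHG21, 18 for SNHG18 and 8 for SNHG9. In control cells the counts were 95 for SNHG17, 82 for SNHG4, 42 for SNHG12, 27 for SNHG10, 25 for SNHG21, 12 for SNHG18 and 8 for SNHG9. SNHG11 and SNHG28 had no count at all, and a count of 0 still leaves room for 0.252 CPM in PAX5 cells and 0.272 CPM in control cells.

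As a group, 13 of the 24 snoRNA hosts had intervals below 0 and none above, against a background of 16.8% below and 18.7% above among the 13532 features that reached 10 counts (35.5% off 0 in either direction). The point ratio was below 0 for 22 of 24, with SNHG10 and SNHG18 the exceptions. Their median log2 ratio was -0.26, against -0.0067 over all features. Counts of the 26 hosts together came to 21324 in PAX5 cells and 23456 in control cells, a log2 ratio of -0.24 (-0.27 to -0.22), and without SNHG29, which gave the most counts, the ratio was -0.26 (-0.29 to -0.22). None of the 36 host genes passed a rule of size in which the bound of the interval nearest 0 lies at or beyond 2-fold, as 1.4% of all features did (1.34% higher and 0.0517% lower in PAX5 cells). By the point ratio alone, SNHG15 and SNHG20 lay at or beyond 1.5-fold on the lower side, where 5.53% of all features did, and none of the 36 on the higher side, where 7.83% did (13.4% in either direction). The kind of snoRNA made little difference to the median log2 ratio, which was -0.26 in 9 hosts of C/D snoRNAs only and also -0.26 in 10 hosts of H/ACA snoRNAs only.

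**Figure D2:**
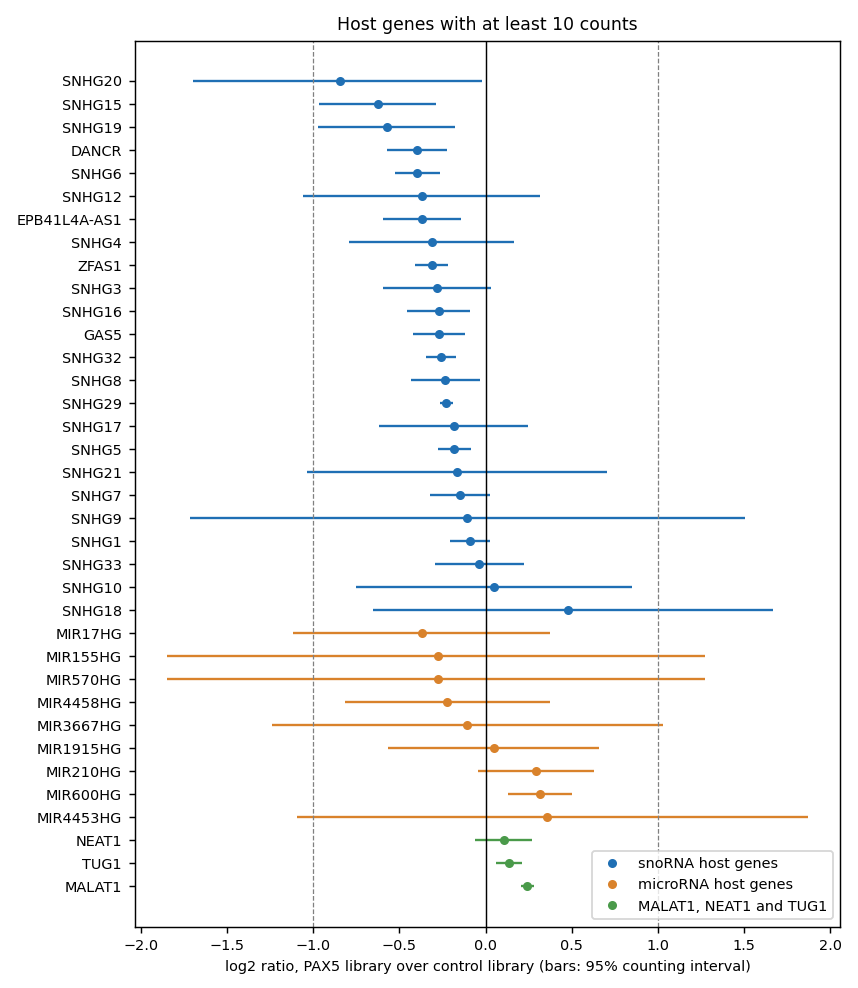
Log2 ratio of the PAX5 library over the control library for the 36 host genes with at least 10 counts, grouped by colour into snoRNA hosts, microRNA hosts and MALAT1, NEAT1 and TUG1, with bars for the 95% counting interval and dashed lines at 2-fold. The snoRNA hosts lie mostly left of 0, with 13 intervals wholly below it, where 16.8% of all features lay below. No interval lies wholly beyond a dashed line, as 1.4% of all features did.

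Length moved with these ratios. Over the 13532 features divided into 10 equal groups by length, the median log2 ratio was -0.21 in the shortest group (median 842 bases) and 0.19 in the longest (median 8088 bases). The snoRNA hosts with at least 10 counts had a median length of 1009.5 bases, and 14 of the 36 host genes fell in the shortest group. Among features of that group with at least 100 counts, 53.1% had intervals below 0, against 9 of 10 snoRNA hosts within the same limits. Counts above 100 were not matched. Among features of the 5 shorter groups with at least 100 counts it was 31%, against 12 of 18 snoRNA hosts. Over the 36 host genes, Spearman's rho between length and log2 ratio was 0.463, over the 24 snoRNA hosts alone 0.198, and over all 13532 features 0.335. These values describe genes of the same 2 libraries, which are not independent.

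**Figure D3:**
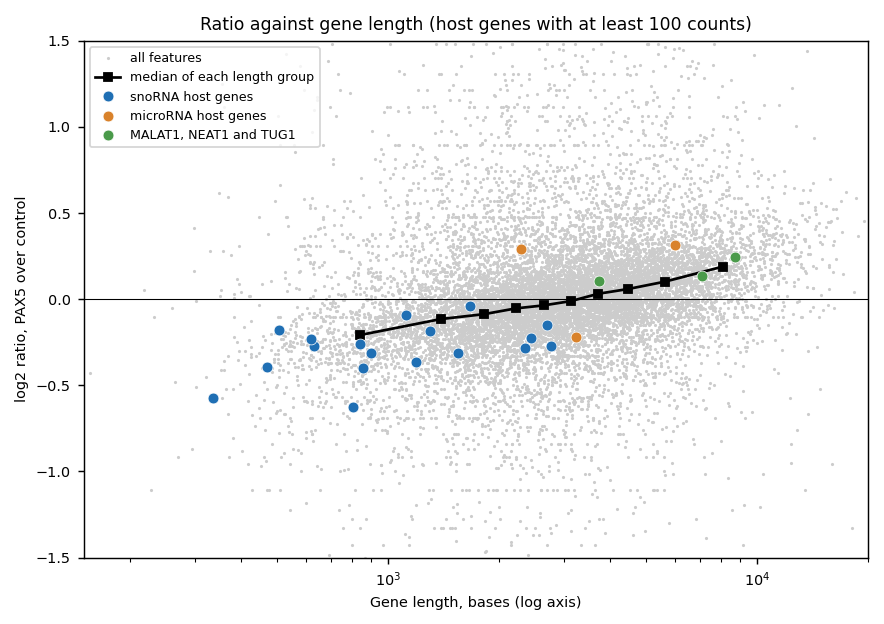
Log2 ratio of the PAX5 library over the control library against gene length on a log axis, for all features with at least 10 counts (grey), the medians of 10 length groups (black squares) and the 24 host genes with at least 100 counts (coloured), with 371 features outside the plotted ratios of -1.5 to 1.5 and 35 outside the plotted lengths. The group medians climb with length between -0.21 and 0.19. Of the 18 snoRNA hosts shown, 12 have intervals below 0, against 31% of features of the 5 shorter groups with at least 100 counts.

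When each ratio was centred on the median of its length group, 7 snoRNA hosts kept intervals below 0 and 1 had an interval above, against 14.4% below and 16% above over all features. Among features of the 5 shorter groups with at least 100 counts, 15.6% had centred intervals below 0, and 7 of 18 snoRNA hosts did. The 7 were SNHG15 at a centred log2 ratio of -0.42 (-0.76 to -0.08), EPB41L4A-AS1 at -0.25 (-0.48 to -0.03), SNHG16 at -0.24 (-0.42 to -0.06), SNHG29 at -0.19 (-0.23 to -0.15), DANCR at -0.19 (-0.37 to -0.02), SNHG6 at -0.19 (-0.32 to -0.06) and ZFAS1 at -0.10 (-0.20 to -0.0075). SNHG29 and SNHG16 lie in the fifth length group, whose own median of -0.036 is near 0, so their ratios hardly moved. The intervals of the other 6 then included 0. SNHG20 came to -0.79 (-1.64 to 0.031), SNHG19 to -0.37 (-0.76 to 0.028), GAS5 to -0.061 (-0.21 to 0.089), SNHG32 to -0.052 (-0.14 to 0.034) and SNHG8 to -0.025 (-0.23 to 0.18), while SNHG5 changed sign, to 0.026 (-0.069 to 0.12). The interval of SNHG1, whose ratio also changed sign, lay above 0 after centring, at 0.12 (0.0017 to 0.23), and those of SNHG9, SNHG21 and SNHG33, likewise changed in sign, still included 0. The centred median of the 24 snoRNA hosts was -0.11. With 1 library per group the part of length in these differences was not tested.

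**Figure D4:**
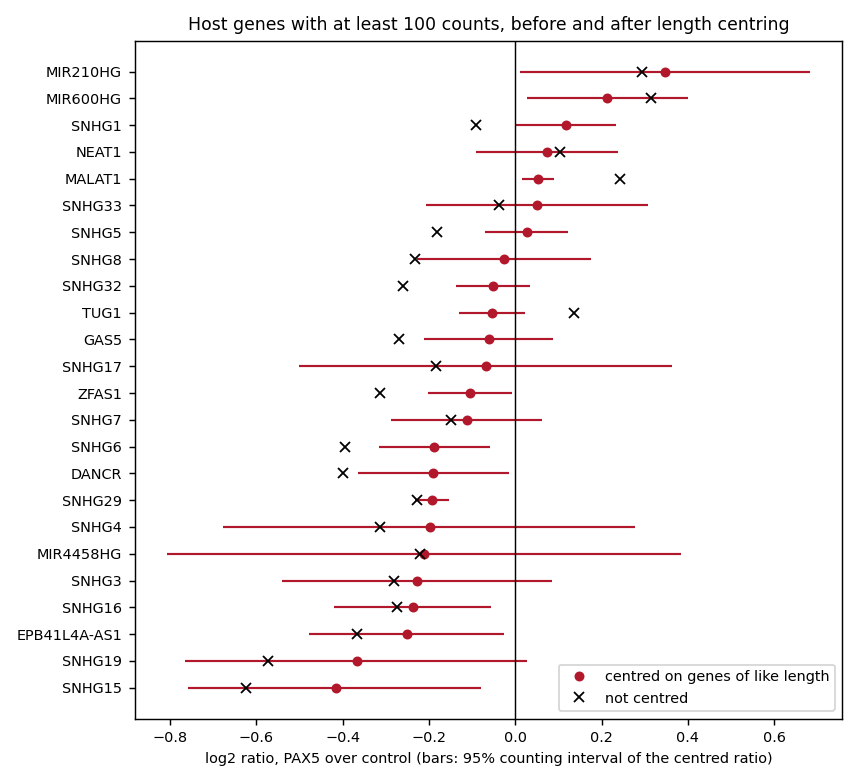
Log2 ratio of the PAX5 library over the control library for the 24 host genes with at least 100 counts, before (crosses) and after (points) centring on features of like length, with bars for the 95% counting interval of the centred ratio. SNHG15 has the lowest centred value at -0.42 and MIR210HG the highest at 0.35, and the short hosts move most towards or past 0.

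The snoRNA genes inside the hosts gave a separate readout, though a weak one, since the labels name no library for small RNAs. RefSeq places 67 snoRNA genes within the spans of the 53 genes, 57 of which are listed in the count table. These 57 summed to 110 counts in PAX5 cells and 114 in control cells, a log2 ratio of -0.16 (-0.55 to 0.23). The 10 listed inside GAS5 summed to 41 counts in PAX5 cells and 31 in control cells, and the 8 inside SNHG1 to 21 in PAX5 cells and 36 in control cells. The GAS5 interval included 0 (log2 ratio 0.30, -0.41 to 1.02), while that of SNHG1 lay below it (-0.88, -1.73 to -0.07). The highest single count was that of SNORD81 in GAS5 for the PAX5 library, with 14 counts there and 3 in control cells, and SNORD22 in SNHG1 for the control library, with 9 counts in PAX5 cells and 16 in control cells. Counts of snoRNA genes may include reads of unspliced host RNA, and their part was not tested.

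Among the microRNA hosts, MIR600HG and MIR210HG had the most counts. MIR600HG had 558 counts in PAX5 cells and 417 in control cells, which is 1.24-fold (1.09 to 1.42) and a log2 ratio of 0.31 (0.13 to 0.50). Its interval was the one among 9 microRNA hosts that lay off 0, where 35.5% of all features did. After centring on length it came to 0.21 (0.027 to 0.40). MIR210HG, whose microRNA is known for its induction in hypoxia, had 174 counts in PAX5 cells and 132 in control cells, with a log2 ratio of 0.29 (-0.04 to 0.63), and after centring its interval also lay above 0, at 0.35 (0.011 to 0.68). MIR17HG, the host of the oncogenic miR-17-92 cluster, had only 30 counts in PAX5 cells and 36 in control cells, with a log2 ratio of -0.37 (-1.12 to 0.37). MIR155HG, the host of a microRNA of activated B cells, had 8 counts in PAX5 cells and 9 in control cells, with a log2 ratio of -0.28 (-1.85 to 1.27). At such counts differences beyond 1.5-fold could also go undetected. The interval reached 0.60 to each side on the log2 scale at 100 summed counts, 1.13 at 30 and 2.12 at 10.

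One arm of each microRNA in these 4 hosts and in MIR4458HG is given from RefSeq (GRCh38.p14), 5′ to 3′, with the seed (bases 2 to 8) in capitals, because the cluster in MIR17HG holds several that share a seed.
hsa-miR-17-5p (MIR17HG, chr13:91350618-91350640, plus strand): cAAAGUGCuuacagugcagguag
hsa-miR-20a-5p (MIR17HG, chr13:91351072-91351094, plus strand): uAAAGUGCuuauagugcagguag
hsa-miR-18a-5p (MIR17HG, chr13:91350756-91350778, plus strand): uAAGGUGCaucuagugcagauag
hsa-miR-19a-3p (MIR17HG, chr13:91350939-91350961, plus strand): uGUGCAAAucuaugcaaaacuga
hsa-miR-19b-3p (MIR17HG, chr13:91351245-91351267, plus strand): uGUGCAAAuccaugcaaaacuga
hsa-miR-92a-3p (MIR17HG, chr13:91351361-91351382, plus strand): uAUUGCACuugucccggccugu
hsa-miR-155-5p (MIR155HG, chr21:25573983-25574006, plus strand): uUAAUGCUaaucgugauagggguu
hsa-miR-210-3p (MIR210HG, chr11:568112-568133, minus strand): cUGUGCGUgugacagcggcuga
hsa-miR-600 (MIR600HG, chr9:123111561-123111583, minus strand): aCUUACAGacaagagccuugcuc
hsa-miR-4458 (MIR4458HG, chr5:8460933-8460951, plus strand): aGAGGUAGguguggaagaa

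In MIR17HG, miR-17-5p and miR-20a-5p share a seed, and so do miR-19a-3p and miR-19b-3p. The opposite arms of the microRNAs in MIR17HG, MIR155HG and MIR210HG are not printed, and among them miR-19a-5p and miR-19b-1-5p also share a seed. The seed of miR-4458 is that of let-7a-5p, a copy of which lies in MIR100HG, a gene with 0 counts in PAX5 cells and 0 in control cells. MicroRNA sequences matched 21 of the 53 genes. Of 21 microRNA genes inside these genes that the count table lists, MIR210 alone had a count, 1 in PAX5 cells and 0 in control cells, so the table holds no readout of mature microRNAs. The other microRNA hosts with at least 10 counts had intervals that included 0: MIR1915HG, MIR4458HG, MIR3667HG, MIR4453HG and MIR570HG. In PAX5 cells their counts were 50 for MIR1915HG, 48 for MIR4458HG, 15 for MIR3667HG, 11 for MIR4453HG and 8 for MIR570HG. In control cells they were 45 for MIR1915HG, 52 for MIR4458HG, 15 for MIR3667HG, 8 for MIR4453HG and 9 for MIR570HG. The median log2 ratio of all 9 was -0.11, while their summed counts with the microRNA hosts under 10 counts gave 0.21 (0.07 to 0.35), a sum that MIR600HG and MIR210HG dominate. MIR3936HG, MIR497HG, MIR503HG and MIR3945HG had between 1 and 6 counts over both libraries. The remaining 11, MIR100HG, MIR137HG, MIR2052HG, MIR205HG, MIR22HG, MIR3171HG, MIR31HG, MIR3681HG, MIR4500HG, MIR670HG and MIR924HG, had 0 counts in both.

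MALAT1, NEAT1 and TUG1 had ratios slightly above 0 before any correction for length. After it the point ratio of TUG1 was below 0, with an interval that included 0. MALAT1, an abundant transcript of nuclear speckles, had 12647 counts in PAX5 cells and 9936 in control cells, which is 1.18-fold (1.15 to 1.21) and a log2 ratio of 0.24 (0.20 to 0.28). TUG1 had 3098 counts in PAX5 cells and 2620 in control cells, with a log2 ratio of 0.14 (0.06 to 0.21). NEAT1, the scaffold of paraspeckles, had 656 counts in PAX5 cells and 567 in control cells, with a log2 ratio of 0.10 (-0.06 to 0.27). The intervals of MALAT1 and TUG1 lay above 0, as did 18.7% of all features and 52.5% of those in the longest length group, which holds both, and that of NEAT1 included 0. These are long genes, of 8708 bases for MALAT1, 7105 for TUG1 and 3735 for NEAT1 as counted. After centring on length, MALAT1 came to 0.053 (0.015 to 0.091), NEAT1 to 0.073 (-0.092 to 0.24) and TUG1 to -0.054 (-0.13 to 0.022). The point ratio of TUG1 thus changed sign, but its centred interval included 0 and shows no direction.

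Genes of the same pathways were set beside the hosts. Of 34 protein-coding snoRNA hosts, 28 had intervals below 0 and 2 above, where 16.8% of all features lay below and 18.7% above. The median log2 ratio was -0.20, with RPL13A lowest at -0.58 and NAP1L4, a histone chaperone, highest at 0.13. Among 40 genes of cytosolic ribosomal proteins, which make the ribosome itself, 37 intervals lay below 0 and 1 above, that of RPL15 at 0.093. Their median was -0.24, with RPS15 lowest of the 40 at -0.51. The 40 do not hold every ribosomal protein gene, and RPL13A, for example, is only on the list of snoRNA hosts. Those 2 lists are short genes too, with median lengths of 1232.5 bases for the protein-coding snoRNA hosts and 807.5 for the ribosomal protein genes, and 4 genes are on both. Among well-counted features of the shortest length group, as above, 53.1% lay below 0. After centring on length, 18 of the 34 and 23 of the 40 had intervals below 0, where 14.4% of all features did, and both medians were near 0, at -0.07 and -0.06. The shares over all features are not matched for count. The interval reached 2.12 to each side on the log2 scale at 10 summed counts and 0.057 at 10000. Most genes of these 2 lists have high counts, so small ratios can lie off 0 there. The lists that follow were not matched for count either. Reads of ribosomal protein genes cannot be told apart from those of their processed pseudogenes where the copies match.

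Of 18 genes for proteins of box C/D and H/ACA ribonucleoprotein particles and their assembly, 10 lay below 0 by their intervals and none above, where 16.8% of all features lay below. After centring on length it was 4 of 18, against 14.4% of all features. The median log2 ratio before centring was -0.13. NOP10, an H/ACA core protein, was lowest at -0.37 (-0.54 to -0.20) and ZNHIT6, an assembly factor, highest at 0.093 (-0.067 to 0.25). Of 15 genes of nonsense-mediated decay, 6 had intervals above 0 and 1 below, where 18.7% of all features lay above, with a median of 0.09. With length centred, 4 of the 15 lay above 0, where 16% of all features did. The kinase gene SMG1 was highest at 0.52 (0.41 to 0.63) and UPF3A lowest at -0.32 (-0.56 to -0.07). SMG1 is a long gene and came to 0.33 after centring on length.

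For microRNAs, 8 of 16 processing genes had intervals above 0 and 1 below, with a median log2 ratio of 0.12. They are long genes (median 4984.5 bases), and 18.7% of all features lay above 0 but 26.2% to 52.5% in the 3 longest length groups. With length centred, 6 of the 16 lay above 0 and 2 below, where 16% of all features lay above and 14.4% below. TNRC6C, a silencing partner of Argonaute proteins, was highest at 0.73 (0.54 to 0.93), and TARBP2, a partner of DICER1, lowest at -0.22 (-0.58 to 0.14). Of 23 protein-coding microRNA hosts, 6 had intervals above 0 and 5 below, where 18.7% of all features lay above and 16.8% below. Their median was -0.01, with AOPEP highest at 0.52 (-0.05 to 1.10) and EGFL7, the host of miR-126, lowest at -0.37 (-0.48 to -0.25). Genes of paraspeckle proteins, the partners of NEAT1, had 2 of 11 intervals above 0 and 5 below, against the same 18.7% above and 16.8% below, with a median of -0.01 and SMARCA4 highest at 0.27. With length centred, 1 of the 11 lay above 0 and 6 below, where 16% of all features lay above and 14.4% below. After centring on length the medians were 0.09 for the processing genes, -0.022 for the protein-coding microRNA hosts, -0.076 for the paraspeckle proteins, 0.057 for the decay genes and -0.08 for the snoRNA-binding proteins. No gene of these lists passed the 2-fold rule.

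**Figure D5:**
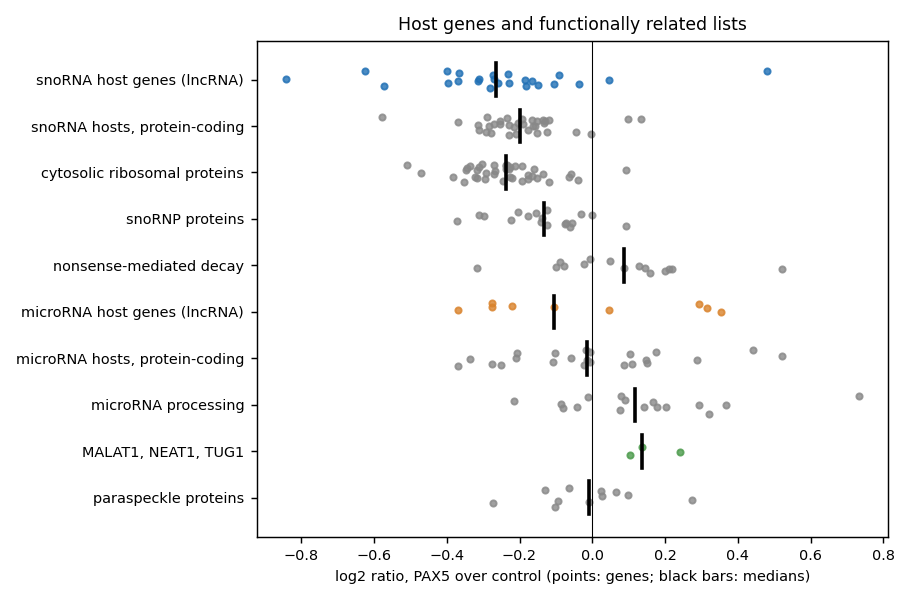
Log2 ratio of the PAX5 library over the control library for each gene with at least 10 counts in the host gene groups (coloured) and in 7 related lists (grey), with black bars for medians. The snoRNA hosts (median -0.26), protein-coding snoRNA hosts (-0.20) and ribosomal protein genes (-0.24) lie left of 0, and MALAT1, NEAT1 and TUG1 (0.14) and the microRNA processing genes (0.12) right of it.

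A gene that starts within 1000 bases upstream on the opposite strand was found for 6 of 30 host genes with a promoter entry. SNHG19 and TRAF7, a ubiquitin ligase gene, start 424 bases apart, and TRAF7 had 1262 counts in PAX5 cells and 1296 in control cells, with a log2 ratio of -0.14 (-0.26 to -0.031) beside -0.57 for SNHG19. TUG1 and MORC2, a chromatin ATPase gene, start 491 bases apart, with log2 ratios of 0.14 for TUG1 and -0.045 for MORC2. SNHG10 (0.046) stood beside GLRX5 (-0.099), a gene of iron-sulfur cluster assembly. MIR4453HG (0.35) stood beside FBXW7 (0.16), a ubiquitin ligase gene whose interval lay above 0. The neighbours of SNHG18 and MIR4458HG, SEMA5A and LINC02226, had 6 counts and 0 counts in PAX5 cells, against 2 counts each in control cells. In 6 of the 36 host genes a gene of the opposite strand overlaps the span (GAS5, SNHG4, SNHG7, SNHG12, SNHG21 and EPB41L4A-AS1), and since the strand setting of the counting is not known, reads of the 2 strands cannot be told apart there. For MIR570HG and MIR3667HG no strand was found.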

How the data were processed

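The authors deposited whole, unnormalised read counts for each Entrez gene, beside its length in bases. Per the submitters' processing notes, featureCounts made them, on build hg19 (GRCh37). For the aligner, strand setting and handling of multi-mapping reads, the answer is not given in the sources used here. The table of the series and the files of single libraries held the same 51404 values. Columns were matched to samples by library number.

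Symbols, start sites and sequences came from RefSeq tables of GRCh38.p14, and strands of genes without a promoter entry from GENCODE. Of 25702 features, 23696 had a symbol, and those without took up 0.519% of counts in PAX5 cells and 0.590% in control cells. Scaling was by TMM in edgeR 4.0.16 (R 4.3.3), over features with at least 10 counts, which gave 0.9954 (PAX5) and 1.0046 (control). Exact Clopper-Pearson 95% intervals (scipy 1.17.1), conditional on the summed count, reached 2.12 to each side on the log2 scale at 10 counts, 0.60 at 100 and 0.18 at 1000. A library at 0 has a floor of 3 counts. Intervals and floors cover counting error only, because PCR reads are not independent molecules. A group of 1 library has no spread to estimate, so no model was tested. The interval and rule were also run on counts simulated with counting error alone. Such a run holds no spread between replicate libraries, so it checks the calculation and not the differences.

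The host genes and lists were chosen with earlier results of these data known. Named were every host gene, the highest and lowest gene of each related list, and start-site neighbours, except that the lowest gene of 1 list is not reported here. Alternatives were scaling by totals, by DESeq2 1.42.0 size factors or by upper quartiles, count minimums of 1 or 50, other folds, single-library files, the mean, subsets of the host genes, and centring on length. Centring on length and count together was added after seeing the data.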

Additional observations from a re-analysis of the deposited data

How the results depend on the processing

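No paired analysis was possible because each group has 1 library, and leaving out a replicate was not possible for the same reason. No host gene passed the 2-fold rule under any scaling, centring or count minimum, with a bound at 1.5-fold or with a point ratio at 2-fold, while 2 genes (SNHG15 and SNHG20, both lower in the PAX5 library) had a point ratio at or beyond 1.5-fold, as 13.4% of all features did. Centring on length, and on length and count, left 7 intervals below 0 in place of 13. Over all features 16.8% lay below 0 before centring and 14.4% after centring on length. Scaling by upper quartiles gave 15 intervals below 0, with SNHG1 (-0.12) and SNHG7 (-0.18) added. That scaling also moved the median log2 ratio of all features to -0.038, from -0.0067 under TMM. Centring on length turned the sign of 6 of the 36 ratios. Of these, SNHG9, SNHG21 and SNHG33 had intervals that included 0 before and after, SNHG1 came to 0.12 with length and 0.15 with length and count, and among ratios with intervals off 0 the sign turned for SNHG5 (to 0.026 with length and 0.056 with length and count) and TUG1 (to -0.054 with length and -0.062 with length and count). After centring on length the intervals of SNHG5 and TUG1 included 0. Centring subtracts the median of each length group, which was -0.21 for the shortest genes and 0.19 for the longest. The median log2 ratio of the host genes was -0.22 and lay between -0.26 and -0.068 under the other settings. The 3 other scalings and the single-library files left all 36 ratios inside their counting intervals. Depth limits what can be said of hosts with about 30 counts, where the interval reached 1.13 to each side on the log2 scale.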

Other observations

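MicroRNA host genes whose names carry letters or hyphens lie outside the naming rule and are given as values. MIR193BHG had 12 counts in PAX5 cells and 1 in control cells, a log2 ratio of 3.48 with a counting interval of 0.72 to 8.90, which does not reach the 2-fold bound. MIR550A3HG had 278 counts in PAX5 cells and 228 in control cells (log2 ratio 0.18, -0.08 to 0.44). MIR99AHG had 24 counts in PAX5 cells and 15 in control cells (0.57, -0.42 to 1.61), and MIR9-2HG had 10 in PAX5 cells and 16 in control cells (-0.78, -2.09 to 0.44). MIR23AHG had 5 counts in each library and MIRLET7BHG 4 in PAX5 cells and 5 in control cells. MIR4435-2HG and 6 others of this kind had 0 counts in both.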
